A study of Homo sapiens with 5 samples.

Results

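The genes described here are METTL18, the methyltransferase that was knocked out, RPL3, the ribosomal protein it modifies, and METTL9, SETD3 and CARNMT1, enzymes that methylate histidine in other proteins or in a dipeptide. They were taken by gene symbol, and each of the 5 symbols had 1 row among the 14084 rows of the count table. Ribosome footprints, the stretches of mRNA that a ribosome covers and protects from nuclease, were counted in HAP1, an established near-haploid human cell line, as wild type (n = 2 libraries) and as METTL18 knockout (n = 3 libraries). No treatment or time point is named for either genotype, and the sources used here give neither the mutation nor the number of knockout clones. All knockout libraries may therefore derive from 1 clone, and a difference between clones cannot be told apart from an effect of the genotype. The total was 4887380 to 5302160 counts in the wild-type libraries and 16339574 to 17629199 in the knockout libraries, a 3.33-fold difference of mean depth between the groups. Nothing in the labels ties the libraries to separate cultures, so p-values reflect the spread among the 5 libraries, part or all of which may be technical.

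HAP1 descends from a chronic myeloid leukaemia line, grows attached and has no agreed marker set. Of the fusion partners of that leukaemia, BCR had 37 and 39 wild-type counts and 125 to 129 knockout counts, and ABL1 had 9 and 4 against 70 to 82. After scaling for depth, BCR did not pass (log2 fold change 0.28, adjusted p = 0.158, edgeR quasi-likelihood test). ABL1 rose (2.06, adjusted p = 7.61e-07 by the same test). Single markers of other lineages differed widely between the groups. The epithelial cadherin CDH1 was nearly without footprints in the wild type, at 1 and 0 counts, against 198, 187 and 197 counts for knockout. Its ratio of knockout to wild type from summed counts was 141, with an exact 95% counting interval of 25.2 to 5566 (adjusted p = 2.69e-17, edgeR quasi-likelihood test). The blood lineage factor TAL1 had 60 and 36 against 36, 26 and 28 counts and fell by 2.13 on the log2 scale (adjusted p = 1.84e-10 by the same test), beside a median absolute log2 fold change of 0.59 over all genes tested. The epithelial keratin KRT18 (0.23) and the collagen COL1A1 (0.45), a fibroblast marker, rose, and with total-count scaling neither passed (-0.0387 and 0.17), while EPCAM (0.27) did not pass. Of the other blood lineage markers, CD33 was at 0 in all libraries and CD34, SPN and LMO2 had 0 to 5 counts per library. KRT19, COL1A2 and THY1 had 0 to 6. In summed level, 5 blood lineage markers had 7.13 to 10.9 CPM (counts scaled to the library's size) for wild type and 2.09 to 2.58 CPM for knockout, 4 epithelial markers 142 to 151 against 183 to 186 CPM, mostly KRT18, and 3 fibroblast markers at most 17.9 against at most 24.6 CPM. Fewer cells of a type and less RNA per cell cannot be told apart, and the part of these marker differences in the results on the 5 genes was not tested.

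Protein histidine methylation places a methyl group from S-adenosylmethionine on a ring nitrogen of histidine. METTL18 acts on RPL3, a large-subunit protein that reaches toward the peptidyl transferase centre. SETD3 acts on actin, METTL9 on proteins with alternating histidines, and CARNMT1 turns the histidine dipeptide carnosine into anserine. METTL18, METTL9 and CARNMT1 have the seven-beta-strand methyltransferase fold, whereas SETD3 is a SET-domain enzyme, a class otherwise known for lysine methylation.

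The known sites of METTL18 and SETD3, and stretches of the form that METTL9 recognises, are shown because they lie inside genes whose footprints were counted. In the coding sequence of RPL3 (transcript ENST00000216146, GENCODE 29), histidine codon 245, the known site of METTL18, occupied hg38 chromosome 22, 39314800 to 39314802 on the minus strand, in exon 6 of 10. It was the 11th of 16 histidine codons among 403. The capitals below mark the codon at that number in RPL3 and in its muscle paralog RPL3L.
RPL3 codon 245: ccccgcaagaccCACcgaggcctgcgc
RPL3L codon 245: ccgcggaagaccCATaagggcctgcgc
Codon 73 of cytoplasmic actin, the known site of SETD3, lay in exon 3 of 6 of both ACTB (hg38 chromosome 7, 5529305 to 5529307, minus strand) and ACTG1 (hg38 chromosome 17, 81512047 to 81512049, minus strand). It is marked by capitals in the next pair.
ACTB codon 73: taccccatcgagCACggcatcgtcacc
ACTG1 codon 73: taccccattgagCATggcatcgtcacc
METTL9 recognises a histidine, a small residue and a second histidine. In frame, a histidine codon (CAT or CAC), a codon for alanine, asparagine, glycine, serine or threonine, and another histidine codon were found in 12.0% of the 13922 coding sequences of the table that could be read. NDUFB3, a complex I subunit, held 2 such stretches in 98 codons, and ARMC6, an armadillo-repeat protein, held 3 in 476. Capitals mark the 3 codons of 1 stretch in each, numbered by the first of them.
NDUFB3 codon 5: gcccatgaaCATGGACATgagcatgga
ARMC6 codon 236: ccctttggcCATGCCCACaaccatgcc
None of the coding sequences of METTL18, RPL3, METTL9, SETD3 and CARNMT1 held the stretch, and a match describes letters, not a methylated site.

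METTL18 footprints were scarce and lower in the knockout. Its row (ENST00000310392, hg38 chromosome 1, 169792529 to 169794966, minus strand) has 2 exons, with the whole coding part of 1116 bases in 1 of them. The wild-type libraries held 33 and 32 counts, the knockout ones 33, 32 and 34. Against the deeper sequencing of the knockout, these nearly equal counts gave wild-type levels of 5.56 and 5.85 CPM and knockout levels of 2.18, 1.97 and 2.16 CPM, after scaling by trimmed mean of M values (TMM). Both wild-type libraries were above all 3 knockout libraries, and the groups likewise did not overlap at 83.5% of the 11335 genes tested. A footprint count joins mRNA abundance and ribosome load per mRNA, which cannot be told apart here. The log2 fold change was -1.44 (SE 0.247, adjusted p = 2e-06, edgeR quasi-likelihood test), so that 36.8% of the wild-type level remained. A fall passed at 36.6% of tested genes and a rise at 37.8%, 74.4% in all. From the summed counts, 65 for wild type and 99 for knockout, the ratio of knockout to wild type was 0.368, with an exact 95% counting interval of 0.267 to 0.511. Taken down to the wild-type depth, the knockout libraries held 8, 9 and 11 METTL18 counts, and the log2 fold change was -1.54 (adjusted p = 2.18e-05, edgeR quasi-likelihood test). The counts cover the whole row, so whether the remaining footprints lie before or after a lesion cannot be told from them.

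The locus of METTL18 lies inside the body of C1orf112, a gene on the opposite strand, and none of the 1116 coding bases was under any of that gene's 45 annotated exons. Likewise no coding base of METTL9 was under an exon of IGSF6, and none of CARNMT1 under an exon of C9orf41-AS1, the genes that overlap their bodies on the opposite strand. None of the 1089 windows of 28 bases in its coding sequence, the shortest footprint kept, occurred in a transcript of another gene. The nearest measured gene at higher coordinates was SCYL3, 54664 bases away, at 7.86 ± 1.03 CPM (SD, n = 2) for wild type and 9.54 ± 1.06 CPM (SD, n = 3) for knockout, which did not pass (adjusted p = 0.147, edgeR). At lower coordinates it was F5, the coagulation factor V gene, with 0 counts in all libraries.

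**Figure D1:**
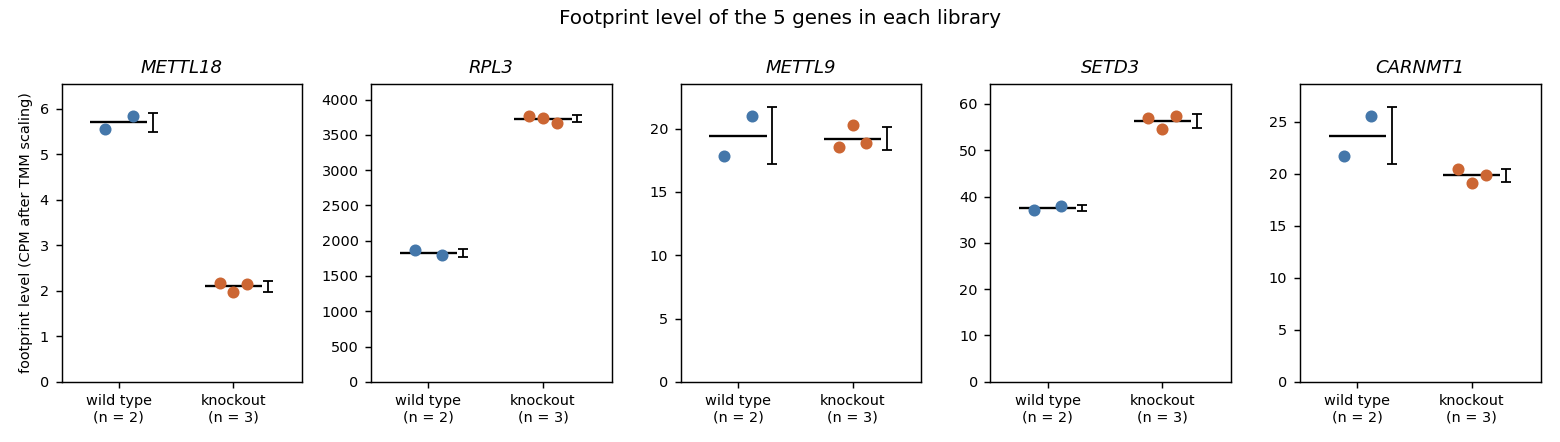
Footprint level in each library (points), with the group mean (horizontal line) and SD (bar at the right), on a separate linear axis from 0 for each gene. The knockout points lie below the wild-type points for METTL18 and CARNMT1, above them for RPL3 and SETD3, and among them for METTL9.

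RPL3 footprints were abundant and higher in the knockout. The row (hg38 chromosome 22, 39312884 to 39319771, minus strand, 10 exons, 1209 coding bases) held 11100 and 9792 wild-type counts and 57162, 60858 and 57917 knockout counts. The levels were 1869 and 1791 CPM in the wild type against 3775, 3739 and 3675 CPM in the knockout, with no overlap. The log2 fold change was 1.03 (SE 0.0353, adjusted p = 4.82e-27, edgeR quasi-likelihood test), a 2.04-fold higher level. Of all genes tested, 87.5% had a log2 fold change at or below that of RPL3, and among 40 large-subunit ribosomal protein genes chosen by symbol it ranked 14th, with 13 genes above it.

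A ratio within a library does not depend on the scaling between libraries. Of the counts of these 40 genes, RPL3 took 4.09% and 3.94% (wild type) or 4.62%, 4.64% and 4.60% (knockout). All knockout values were above both wild-type values, and the means were 4.01% ± 0.108 (SD, n = 2) and 4.62% ± 0.0200 (SD, n = 3). The difference of 0.602 percentage points had p = 0.1 in an exact two-sided permutation test, the smallest p that the 10 possible regroupings of 5 libraries allow. By share RPL3 stood 4th of the 40 for wild type and 2nd for knockout, with RPL4 first in both. Shares of other genes among the 40 moved further and in both directions. RPL7A went from 1.66% in the wild type to 3.72% in the knockout, and RPL4 from 11.1% to 8.71%. For METTL18 and its substrate together, the wild-type libraries held 297 and 327 METTL18 counts per 100000 RPL3 counts, and the knockout libraries 57.7, 52.6 and 58.7. This is 5.54-fold fewer in the knockout, again with no overlap and with exact permutation p = 0.1, the smallest possible. The value joins the lower METTL18 level (0.368 of wild type) with the 2.04-fold higher RPL3 level, so it is not the fall of METTL18 alone.

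**Figure D2:**
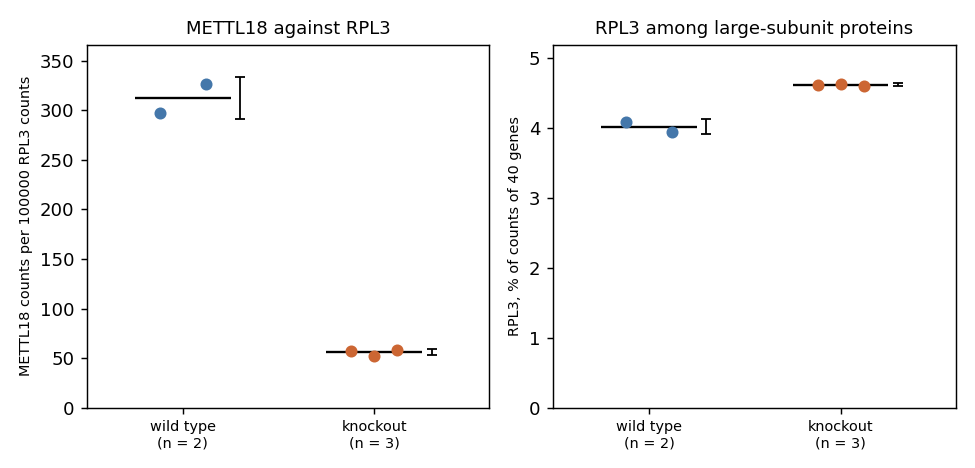
Left, METTL18 counts per 100000 RPL3 counts in each library. Right, RPL3 counts as a percentage of the counts of 40 large-subunit ribosomal protein genes. Points are libraries, lines are means and bars at the right are SDs, and both axes start at 0. The knockout libraries lie at 52.6 to 58.7 on the left and at 4.60% to 4.64% on the right.

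RPL3 also differs from the 4 enzymes in how far its reads can be placed. Of its 1182 coding windows of 28 bases, 804 (68.0%) occurred in a transcript of another gene, and each of the 13 partner genes was a processed pseudogene, led by RPL3P2 with 390 windows and RPL3P4 with 337. Those of METTL9, SETD3 and CARNMT1, like those of METTL18, had no such window. The counting of reads with several matches is not described in the labels, and the RPL3 level is uncertain to that extent. No window was shared with RPL3L. That paralog had 0 counts in both wild-type libraries and 5 in each knockout library, or 0.318 ± 0.0115 CPM (SD, n = 3). With the wild type set to a limit of 3 counts in its 2 libraries together, 0.263 CPM, the knockout mean was 1.21 times that limit. This value leaves out the counting error of the 15 knockout counts, so it does not show a higher level in the knockout. RPL3L did not reach the count needed to be tested.

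The chaperone and ribosomal neighbours of RPL3 rose, as did most of the large subunit. Of 6 genes listed, 5 were tested, 5 rose and none fell, with a median log2 fold change of 0.55. Over all 11335 genes tested 37.8% rose and the median was 0.0161. Of the 40 large-subunit genes, RPL3 and the 4 ribosomal neighbours among them, 38 rose and 2 did not pass, with a median of 0.93. With total-count scaling 35 of these rose and 3 fell, with a median of 0.65, beside -0.26 over all genes. GRWD1, which escorts newly made RPL3 to the assembling large subunit, rose from 76.3 ± 4.20 CPM (SD, n = 2) to 98.9 ± 4.67 CPM (SD, n = 3). Its log2 fold change of 0.37 (SE 0.0656) was below the 1.03 of RPL3, and with total-count scaling it did not pass (0.0993, adjusted p = 0.171, edgeR quasi-likelihood test). RPL23 (1.26) and RPL24 (1.11), which lie next to RPL3 on the subunit, RPL10 (0.55), which joins the subunit late, and RPL9 (0.52) rose. Of the genes beside RPL3 on chromosome 22, SYNGR1, a synaptic vesicle protein gene 29535 bases away, fell (-0.43), and PDGFB, 68130 bases away, had 1 to 4 counts per library and was not tested. As for RPL3, many windows of these 4 ribosomal genes recur elsewhere, from 49.4% in RPL23 to 95.9% in RPL10, and none of GRWD1 does.

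SETD3 rose in the knockout. The row (ENST00000331768, hg38 chromosome 14, 99397746 to 99480879, minus strand, 13 exons, 1782 coding bases) held 220 and 208 wild-type counts and 862, 888 and 906 knockout counts. These are 37.0 and 38.1 CPM against 56.9, 54.6 and 57.5 CPM, with no overlap. The log2 fold change was 0.59 (SE 0.0808, adjusted p = 2.42e-08 by the same test). SETD4 (0.76) and SETD6 (0.65), SET-domain relatives of SETD3 with a shared substrate-binding domain, rose as well, beside 37.8% of all tested genes, and SETD6 did not pass with total-count scaling (0.38) or without wild type replicate 1 (0.59). CCNK, a cyclin gene 279 bases from SETD3 on the opposite strand, stood at 63.4 ± 0.375 CPM (SD, n = 2) and 61.2 ± 2.94 CPM (SD, n = 3) and did not pass (adjusted p = 0.528, edgeR quasi-likelihood test). BCL11B, a transcription factor gene 126221 bases away on the other side, fell (-1.12).

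The actins, which SETD3 methylates, and the profilins, which bind actin monomers, also rose. Of 7 measured genes of this list, 6 rose and 1 did not pass, beside 37.8% of all tested genes that rose, and the median log2 fold change was 0.89. ACTB went from 4741 and 4616 CPM to 8105, 7671 and 8459 CPM (0.79), and ACTG1 from 3583 and 3617 CPM to 6857, 6642 and 6492 CPM (0.89). For both actins the groups did not overlap, as at 83.5% of all tested genes. Profilin 1 (PFN1) rose by 1.34 on the log2 scale, profilin 2 (PFN2) by 0.49, and the smooth-muscle actin ACTG2 by 1.00. The skeletal actin ACTA1 rose by 1.29 from low levels (6 and 5 wild-type counts) and lost the call without wild type replicate 1 (1.36, adjusted p = 0.0614), wild type replicate 2 (1.22, adjusted p = 0.0750) or METTL18 knockout replicate 2 (0.95, adjusted p = 0.0599, edgeR quasi-likelihood test). The cardiac actin ACTC1 had 9 and 10 counts against 13 to 24 and did not pass (-0.62), but passed as lower without METTL18 knockout replicate 3 (-0.95). Actin genes share sequence with each other and with pseudogenes: 53.9% of the coding windows of ACTB and 38.4% of those of ACTG1 occurred in transcripts of other genes.

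METTL9 did not differ between the groups beyond the spread of the libraries. The row (ENST00000358154, hg38 chromosome 16, 21599476 to 21657473, plus strand, 5 exons, 954 coding bases) held 106 and 115 wild-type counts and 281, 330 and 297 knockout counts. The knockout levels of 18.6, 20.3 and 18.8 CPM lay between the wild-type levels of 17.8 and 21.0 CPM. The log2 fold change was -0.0112 (SE 0.116, adjusted p = 0.936, edgeR quasi-likelihood test), and the ratio of summed counts was 0.993 with an exact 95% counting interval of 0.856 to 1.16. The interval covers counting error only, so a change within or somewhat beyond these bounds may have been missed. With total-count scaling, which lowers the median log2 fold change of all genes from 0.0161 to -0.26, METTL9 passed as lower (-0.28, adjusted p = 0.0292, edgeR quasi-likelihood test).

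Both tested substrates of METTL9 rose, beside 37.8% of all tested genes, and the enzyme itself did not pass. NDUFB3 went from 108 and 110.3 CPM in the wild type to 165, 180.0 and 175 CPM in the knockout (log2 fold change 0.66, SE 0.0569). ARMC6 went from 57.6 and 47.9 CPM to 89.5, 84.6 and 95.2 CPM (0.76, SE 0.0758). In neither gene did the groups overlap, as at 83.5% of all tested genes. The zinc transporter SLC39A7 had 1 to 12 counts per library in its row and was not tested. Of the NDUFB3 windows, 38.6% occurred in transcripts of other genes, and none of those of ARMC6 did. Of the genes beside METTL9, CRYM, 294134 bases away, fell from 99.1 ± 6.96 CPM (SD, n = 2) to 10.4 ± 1.32 CPM (SD, n = 3), or by -3.26 on the log2 scale, and OTOA, 6497 bases away, had no wild-type count and 2 to 4 knockout counts per library.

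CARNMT1 was lower in the knockout by a small margin. The row (ENST00000376834, hg38 chromosome 9, 74981020 to 75028394, minus strand, 8 exons, 1227 coding bases) held 129 and 140 wild-type counts and 310, 312 and 314 knockout counts. The levels were 21.7 and 25.6 CPM against 20.5, 19.2 and 19.9 CPM, so that the groups did not overlap but the lower wild-type library and the highest knockout library lay close together. The log2 fold change was -0.25 (SE 0.110, adjusted p = 0.0381, edgeR quasi-likelihood test), and the ratio of summed counts was 0.841 with an exact 95% counting interval of 0.734 to 0.967. The call rested on the libraries and on the tool: it was lost without wild type replicate 2 (-0.14, adjusted p = 0.415), without METTL18 knockout replicate 2 (-0.23, adjusted p = 0.0793), without a low-count filter (-0.23, adjusted p = 0.0668, all by edgeR) and with DESeq2 (-0.26, adjusted p = 0.109). Of its neighbours, C9orf40 rose (0.76) and NMRK1, a kinase of nicotinamide riboside, fell (-1.05).

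Genes of carnosine and histidine metabolism mostly did not pass. Of 9 measured genes, 5 were tested, of which 1 fell and 4 did not pass, beside 74.4% of all tested genes called, and the median log2 fold change was -0.0884. HNMT, which methylates histamine, fell from 4.38 and 4.02 CPM to 1.25, 1.11 and 0.888 CPM (-1.95, SE 0.312). The carnosine-cleaving dipeptidase CNDP2 (-0.0884), the histidyl-tRNA synthetases HARS (-0.0684) and HARS2 (-0.17) and the histidine transporter SLC15A4 (0.31) did not pass. With total-count scaling, CNDP2 (-0.36), HARS (-0.34) and HARS2 (-0.44) passed as lower, a list count of 4 lower and none higher. Of all 11335 tested genes, 5597 passed as lower and 2982 as higher with that scaling. SLC15A4 passed as higher without METTL18 knockout replicate 2 (0.41) and without a low-count filter (0.34), and CNDP2 (-0.15) and HARS (-0.13) passed as lower among genes with a mean CPM of at least 10.

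**Figure D3:**
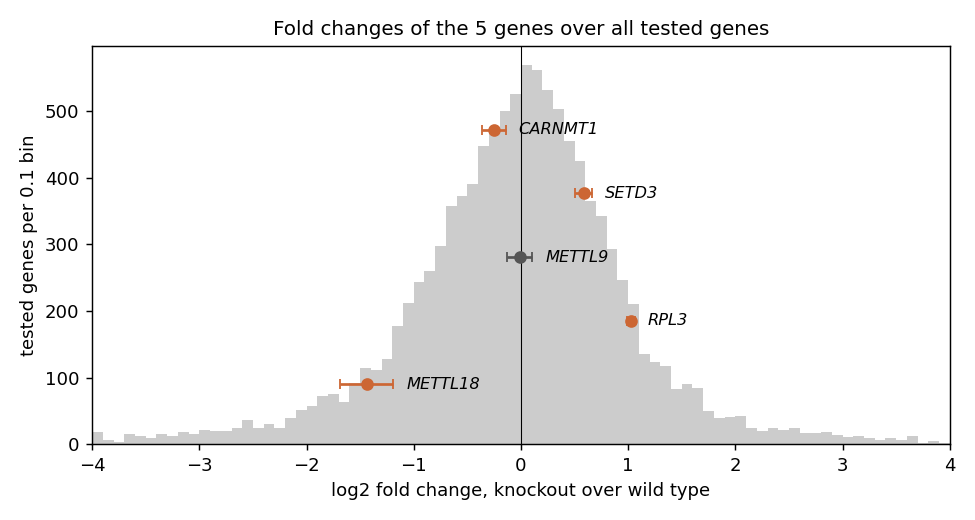
Distribution of log2 fold changes (knockout over wild type) over the tested genes (grey bars, bins of 0.1, axis limited to 4 in each direction), with the 5 genes as points and their standard errors as bars at arbitrary heights. Orange points passed the test and the grey point, METTL9, did not. METTL18 at -1.44 and RPL3 at 1.03 lie on the slopes of the distribution.

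Against all genes, the 5 were not unusual in how many passed. Of them, 2 rose, 2 fell and 1 did not pass, beside the 74.4% of tested genes called in either direction. The groups did not overlap in 4 of the 5, beside the 83.5% over all. With total-count scaling the all-gene calls shifted from 4288 up and 4143 down to 2982 up and 5597 down. By size of the change without regard to direction, METTL18 stood at the 83.4th percentile of tested genes, RPL3 at the 72.9th, SETD3 at the 49.7th, CARNMT1 at the 23.3rd and METTL9 at the 1.22nd. The fall of METTL18 was exceeded or matched by about 9.02% of tested genes.

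Per length of coding sequence, RPL3 was far above the enzymes. In CPM per kilobase of coding sequence, the wild-type levels were 1514 ± 45.4 for RPL3, 21.1 ± 0.401 for SETD3, 20.4 ± 2.37 for METTL9, 19.3 ± 2.24 for CARNMT1 and 5.11 ± 0.189 for METTL18 (SD, n = 2). SETD3, METTL9 and CARNMT1 did not differ beyond their spread in the wild type, and METTL18 was below all 3. In the knockout the levels were 3085 ± 41.9 for RPL3, 31.6 ± 0.871 for SETD3, 20.2 ± 0.965 for METTL9, 16.2 ± 0.533 for CARNMT1 and 1.88 ± 0.105 for METTL18 (SD, n = 3). There, SETD3, METTL9 and CARNMT1 no longer overlapped, in that order. RPL3 was 296-fold above METTL18 per length for wild type and 1639-fold for knockout. Of 13960 rows with a coding length, 42.1% were at or below METTL18 for wild type and 31.7% for knockout, against 99.3% and 99.4% for RPL3.

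In sequence, the RPL3 coding part was the richest of the 5 in histidine codons, at 3.97%, followed by METTL18 at 2.96%, CARNMT1 at 2.20%, SETD3 at 1.68% and METTL9 at 1.57%. The median over 13922 coding sequences was 2.44%. METTL18 had the lowest GC content of the 5 coding sequences, 37.7%, and RPL3 the highest, 54.9%.

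Genes of the METTL family and its relatives, without METTL18 and METTL9, were called in both directions, as genes were over the whole table. Of 28 measured members, 26 were tested, 11 rose, 6 fell and 9 did not pass, with a median log2 fold change of 0.21. The share called was 65.4%, beside 74.4% of all tested genes, and the share that rose 42.3%, beside 37.8%. With total-count scaling 9 rose and 9 fell, and the median turned to -0.0589, beside -0.26 over all genes. METTL3 rose from 63.3 and 60.9 CPM to 125, 119 and 125 CPM (log2 fold change 0.98, SE 0.0648), and its partner METTL14, with which it forms the m6A writer of mRNA, from 24.9 and 30.2 CPM to 45.6, 44.3 and 46.1 CPM (0.72, SE 0.0926). METTL1, a tRNA guanosine methyltransferase, rose by 1.15 on the log2 scale, METTL13, which methylates elongation factor 1A, by 0.86, METTL8, a mitochondrial tRNA enzyme, by 0.80, and NTMT1, which methylates protein N-termini, by 0.56. These 6 had the smallest adjusted p of the list, and none of them lost its call in any alternative run.

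Some genes that make and recycle the methyl donor shared by all these enzymes rose and others fell, as over all genes. Of 15 measured genes of the S-adenosylmethionine cycle, 13 were tested, 3 rose, 5 fell and 5 did not pass, with a median log2 fold change of -0.0494. The share called was 61.5%, beside 74.4% of all tested genes. With total-count scaling 3 rose and 8 fell, beside 2982 and 5597 of all 11335 tested genes. AHCY, which removes the by-product S-adenosylhomocysteine, rose from 453 and 446 CPM to 788, 717 and 771 CPM (0.76). Its relatives AHCYL1 (-1.06) and AHCYL2 (-0.55) fell, as did methionine synthase (MTR, -0.90) and cystathionine beta-synthase (CBS, -0.59). In CBS, 98.3% of windows occurred in transcripts of another gene, so its level is uncertain. MAT2A, the catalytic subunit of the enzyme that makes S-adenosylmethionine, fell from 521 and 509 CPM to 461, 479 and 464 CPM (-0.14, adjusted p = 0.00289) and lost the call without wild type replicate 1 (-0.12, adjusted p = 0.0745, edgeR quasi-likelihood test). Its regulatory subunit MAT2B rose (0.53).

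**Figure D4:**
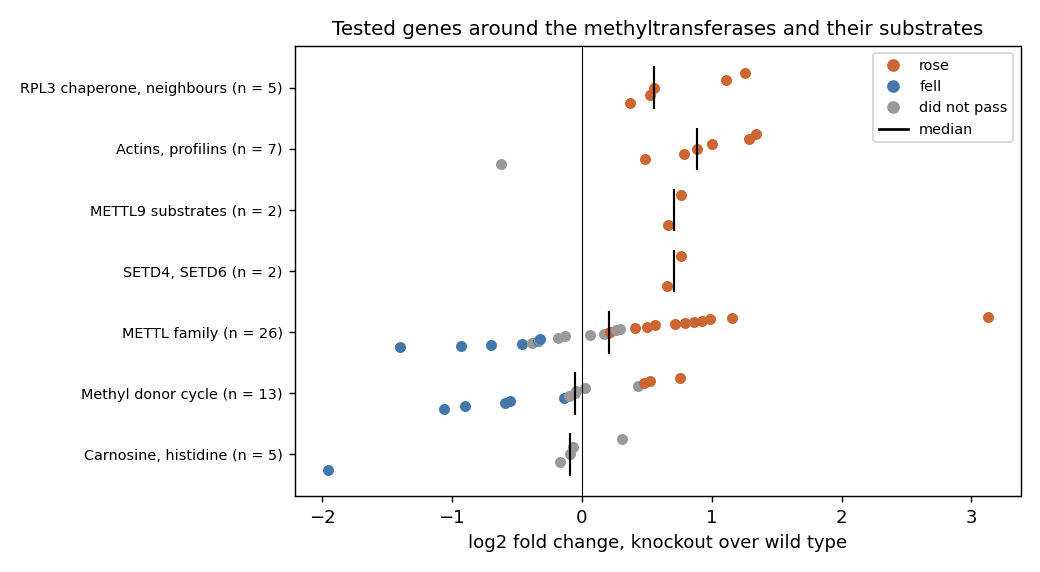
Log2 fold changes (knockout over wild type) of the tested genes in each group of related genes. Each point is a gene, coloured by whether it rose, fell or did not pass, and the vertical black line is the median of the group. The RPL3 neighbours, actins and profilins, METTL9 substrates and SETD relatives have medians of 0.55, 0.89, 0.71 and 0.71, whereas the METTL family and the methyl donor cycle spread to both sides of 0.

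The genes whose profile over the 5 libraries was nearest to each of the 5 were found by Euclidean distance between log2 CPM values centred on each gene's mean, among genes of like abundance (mean log2 CPM within 1). With 2 groups that differ at most genes, this measure mainly finds genes with the same fold change. For METTL18, the nearest of 1861 genes were CDK19 (distance 0.115), ABHD17A (0.136) and BCL2 (0.148), beside a median distance of 1.51. For RPL3, the nearest of 80 genes were HSPA8 (0.0779), a constitutive chaperone, and the small-subunit proteins RPS16 (0.0822) and RPS3A (0.0841), beside a median of 0.378. For SETD3 they included KANSL2 (0.0346) and PIEZO1 (0.0479), for METTL9 they were LRRC8C (0.0440), CXorf23 (0.0726) and IFT88 (0.0729), and for CARNMT1 they were C14orf159 (0.0438), ALKBH5 (0.0537) and SOCS4 (0.0587).

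**Figure D5:**
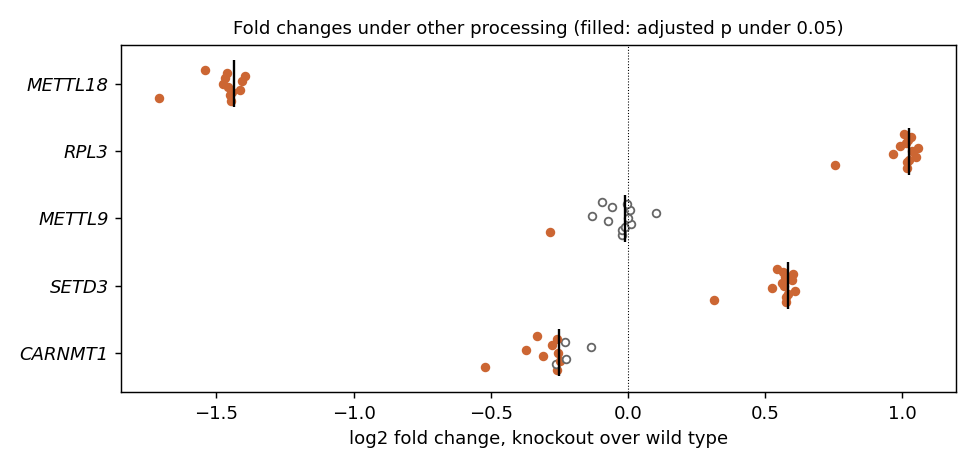
Log2 fold change of the 5 genes under each alternative processing (points, filled where the adjusted p was under 0.05) and as reported (black line). METTL18, RPL3 and SETD3 keep filled points on 1 side of 0, CARNMT1 has 4 open points, and METTL9 has 1 filled point, at -0.28.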

How the data were processed

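Ribosome footprints of 28 to 32 bases were sequenced from 5 HAP1 libraries, per the labels' protocols. Bowtie and the build hg38 were used, per the submitters' processing notes. The sources used here do not give the counting tool, the annotation release, the use of strand or the handling of reads with several matches. The authors deposited raw counts per transcript row, whole numbers that were not normalised, and 387 of 14084 rows were 0 throughout.

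Groups came from the sample titles. Counts were tested over the whole table by the quasi-likelihood test of edgeR 4.0.16 (R 4.3.3), fitted robustly after TMM scaling and filterByExpr (at least 10 counts, and 15 in total), which kept 11335 genes, with Benjamini-Hochberg adjustment over all genes and a threshold of 0.05. The SE is the log2 fold change divided by the square root of its F statistic. Profiles used log2 CPM with a prior count of 2. Coding lengths came from GENCODE 29 (hg38). On counts simulated for the 11335 genes at the real library sizes, the fit called 40 of 50 genes raised 1.5-fold, 50 of 50 raised 2-fold, 50 of 50 raised 4-fold and 45 of 50 lowered to 0.5 of their level, and 5 of its 190 calls were of unchanged genes. Only these sets of 50, drawn from genes above a minimum wild-type level, were changed in the simulation. In the data 74.4% of tested genes were called, so the simulation does not show how the fit does where most genes differ. Counting intervals are exact 95% binomial intervals of 2 summed counts and cover counting error only, since PCR copies are not independent. The 2 wild-type libraries had a chi-square per degree of freedom of 1.14 (p = 8.02e-22 over 10241 genes) and were counted as 2. Pairs of knockout libraries had 2.73 to 3.48. The wild-type value is little above what counting error alone gives. Whether these 2 libraries are separate cultures or technical repeats therefore cannot be told.

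The 5 genes and the gene lists were chosen with earlier results of these data known. The measured genes of lists of up to 9 were named in full, and longer lists by the 6 smallest adjusted p-values and the genes that make or recycle the shared methyl donor. One gene that the rule on nearest profiles names is not reported here. Alternatives were RLE and total-count scaling, DESeq2 1.42.0, limma-voom (limma 3.58.1), other low-count filters, a replicate block, thinning of the knockout libraries, and leaving out each library in turn. Figures used matplotlib 3.10.9 and tests SciPy 1.17.1 in Python 3.11.15.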

Additional observations from a re-analysis of the deposited data

How the results depend on the processing

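The log2 fold changes of METTL18 (-1.71 to -1.39 over 12 alternatives), RPL3 (0.75 to 1.06 over 13) and SETD3 (0.31 to 0.61 over 13) kept their direction and passed in each. METTL18 was below the filter of a mean CPM of at least 10, so that alternative gave no value for it. CARNMT1 ranged from -0.52 to -0.14 and was not called in 4 of 13 alternatives: with DESeq2 (-0.26), without a low-count filter (-0.23) and without 2 libraries, the range with 1 library left out being -0.37 to -0.14. METTL9 was called in 1 of 13, with total-count scaling (-0.28), and ranged from -0.13 to 0.10 with 1 library left out. With total-count scaling the median of all genes moved from 0.0161 to -0.26. The number of genes called was 8431 as reported and 7391 to 8284 with 1 library left out. With windows of 32 bases in place of 28, the shared part of the RPL3 coding sequence was 62.7% in place of 68.0%, since longer windows match less often. The share of RPL3 and the ratio of METTL18 to RPL3 kept their direction with each library left out (differences of 0.526 to 0.679 percentage points and of -270.5 to -241.0 counts per 100000).

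The replicate numbers appear in titles alone, and same-numbered libraries did not deviate together (correlations of 0.00853 and 0.0231 over 11335 genes), so they were not taken as pairs. With the number as a block, 8476 genes were called, and no call changed among the 5. The log2 fold changes were -1.46 for METTL18, 1.04 for RPL3, -0.000795 for METTL9, 0.57 for SETD3 and -0.25 for CARNMT1 (adjusted p = 0.0402, edgeR quasi-likelihood test). METTL18 knockout replicate 3 had no wild-type library of its number, so in this fit it did not enter the comparison of the groups. Low counts limit METTL18 most of the 5: with 65 counts over the wild-type libraries and 99 over the knockout libraries, its SE was 0.247.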
